A study of Homo sapiens with 6 samples.

Results

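Histone lysine methyltransferases ("writers") and demethylases ("erasers") were followed in AsPC-1 cells, an established human pancreatic cancer cell line. Members were taken by gene symbol, as every symbol in the table that reads KMT plus a digit and a letter, KDM plus a digit and A, B or C, any SETD symbol, EHMT1 or EHMT2, EZH1 or EZH2, NSD1 to NSD3, or SUV39H1 or SUV39H2. The rule found 43 of the 15832 symbols, 28 writers and 15 erasers, and used no measured value. The cells had been transfected with siVCPIP1, an siRNA against the deubiquitinase gene VCPIP1, or with siControl, and were profiled by RNA sequencing of total RNA at 48 h, with 3 libraries per group. Both groups are the same unmodified line and both received an siRNA. It is not stated if the replicate libraries are separate cultures, and the p-values therefore rest on a spread that may be only technical.

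Writers move methyl groups from S-adenosylmethionine to lysines of the histone tails, most of them through a catalytic SET domain. Erasers take the groups off again, either by flavin-dependent oxidation (the KDM1 enzymes) or through an iron- and oxoglutarate-dependent JmjC domain (the other KDM enzymes). Methylation of H3K4 and H3K36 is typical of active promoters and transcribed gene bodies, whereas methylation of H3K9, H3K27 and H4K20 is typical of silent or compacted chromatin. Several of these enzymes are recurrently mutated in pancreatic cancer, among them the enhancer writers KMT2C and KMT2D and the H3K27 eraser KDM6A. Their mRNA levels say nothing directly about the marks, which were not measured here.

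Levels are in TPM (a length-scaled share of a library's transcripts), and differences are log2 fold changes of TPM + 1, siVCPIP1 over siControl, with their standard error (SE). Groups were compared with limma, with Benjamini-Hochberg adjustment over the 10966 genes that averaged at least 1 TPM over the 6 libraries, and a gene was called at an adjusted p under 0.05. The number of reads per library is unknown, since TPM keeps no record of it. VCPIP1 itself stood at 0.12, 0.11 and 0.27 TPM in siVCPIP1 libraries, against 2.93, 3.06 and 2.24 TPM in siControl libraries, and was called lower (log2 fold change -1.68, SE 0.13, limma adjusted p = 2e-05); after a correction for transcript GC content and length it was not called (0.27, adjusted p = 0.065), and with a pseudocount of 0.1 TPM in that correction it was called lower (-0.55, adjusted p = 0.016). The shape of the libraries differed by group: the median gene had 1.24 to 2.26 TPM in siVCPIP1 libraries and 6.18 to 7.44 TPM in siControl libraries, and the median log2 fold change of all tested genes was -1.12. The epithelial keratins were abundant in all 6 libraries, and the 7 ductal epithelial markers summed to 20933 to 23734 TPM in siVCPIP1 libraries and 13862 to 15982 TPM in siControl libraries. The keratins KRT8, KRT18 and KRT19 made up nearly all of that sum, and the other markers went the other way. The junction genes EPCAM and CDH1 were low in siVCPIP1 libraries (2.99 to 11.69 and 0.28 to 1.33 TPM) and high in siControl libraries (157.3 to 196.23 and 27.5 to 31.71 TPM). MUC1 and CEACAM6 had 14.71 to 23.55 and 0.24 to 0.41 TPM in siVCPIP1 libraries. In siControl libraries they had 51.93 to 61.88 and 1.95 to 3.09 TPM. Of the leukocyte markers PTPRC stayed at or under 0.66 TPM in all 6 libraries, LYZ had 1.13 to 1.61 TPM in siVCPIP1 libraries and 1.67 to 2.15 TPM in siControl libraries, and CD68, a lysosomal protein gene, had 120.46 to 157.56 TPM in siVCPIP1 libraries and 142.54 to 148.0 TPM in siControl libraries. The fibroblast gene DCN stayed at or under 0.08 TPM. The 5 fibroblast markers summed to 1.5 to 4.51 TPM in siVCPIP1 libraries and 45.31 to 68.98 TPM in siControl libraries, nearly all of it LUM, and its part in the results was not tested. In bulk RNA, fewer cells of a type and less RNA per cell cannot be told apart.

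Most of the enzymes were lower in siVCPIP1 libraries, as were most genes. Of the 41 members tested, 32 were called lower, 1 was called higher (KMT5C) and 8 were not called. Over all tested genes, 66.0% were called lower and 15.0% higher, and the median log2 fold change was -1.28 for the members against -1.12 for all genes. The siVCPIP1 and siControl libraries did not overlap for 33 of the 41 members, against 86.0% of all tested genes. KMT2C and KDM7A averaged under 1 TPM and were not in the test; 8 of the 41 passed the filter only through their siControl level, having a siVCPIP1 mean under 1 TPM. With no filter, 34 of all 43 were lower and 1 higher, against 54.6% lower and 11.3% higher over all 15832 symbols. No test of the list was made.

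**Figure D1:**
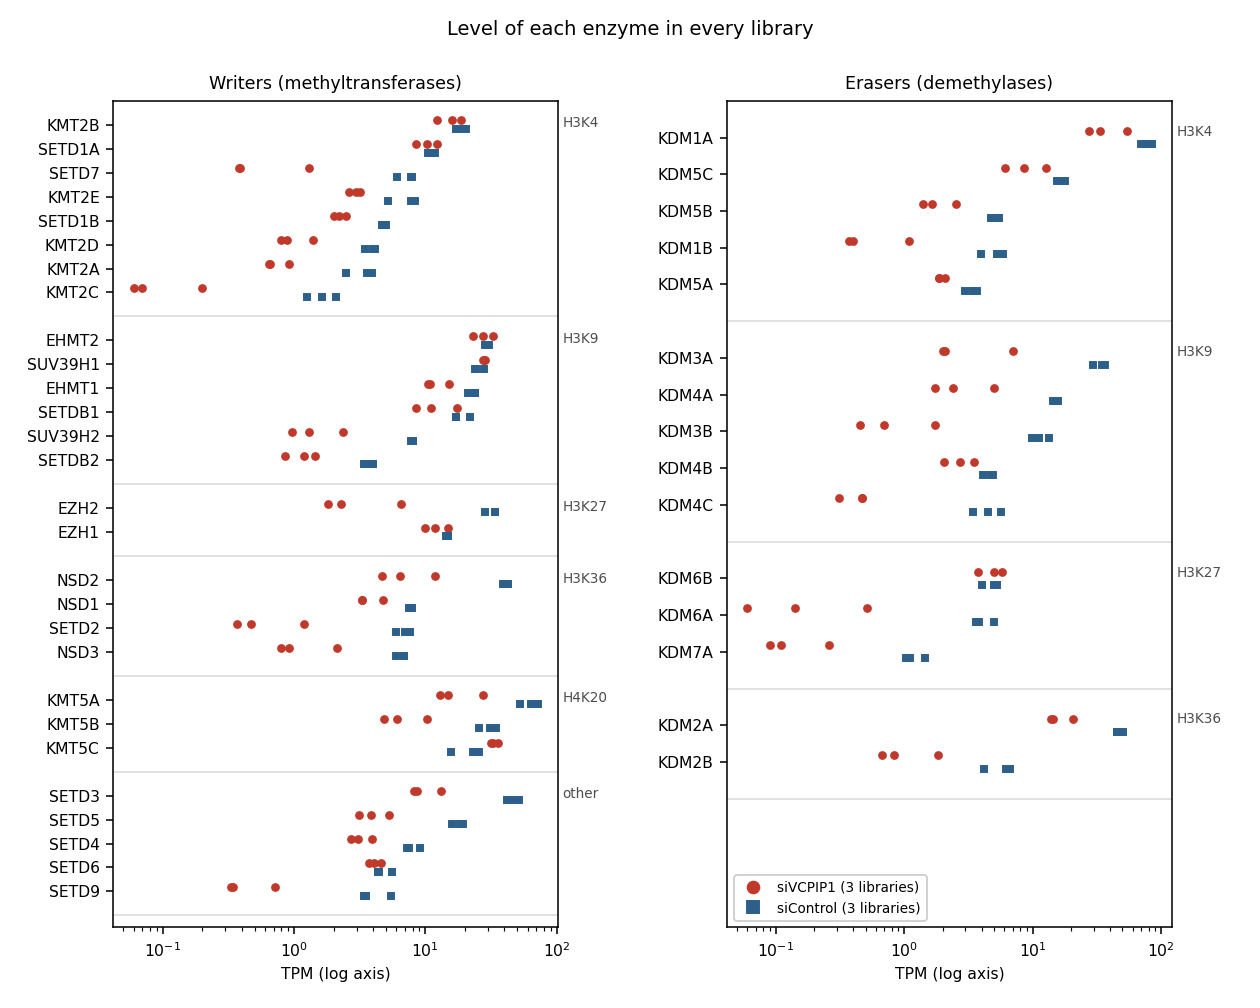
TPM (log axis) of the 43 enzymes in every library, with siVCPIP1 as circles and siControl as squares, writers at left and erasers at right, grouped by the residue they act on. KMT5C, SUV39H1, EHMT2 and KDM6B sit together or to the right in siVCPIP1 libraries, whereas most others sit to the left, and KMT2C and KDM6A lie under 1 TPM in every siVCPIP1 library.

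Because so large a share of all genes moved, directions were also read after rescaling. A median-of-ratios scaling brought the median of all genes to -0.14, a quantile normalization to 0.04, and a per-library correction for transcript GC content and length to 0.07. Of the 41 tested members, median-of-ratios scaling left 21 lower and 10 higher, quantile normalization 17 lower and 19 higher, and the GC and length correction 13 lower and 13 higher. Of all tested genes, 45.1% were called lower and 40.3% higher with the median-of-ratios factors, 38.8% lower and 42.2% higher after quantile normalization, and 31.7% lower and 37.2% higher after the GC and length correction. "Rose" and "fell" are therefore used below for calls on the deposited TPM, and each class is given with its counts after the other scalings. Every class count on deposited TPM is to be read beside the all-gene shares of 66.0% lower and 15.0% higher.

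**Figure D2:**
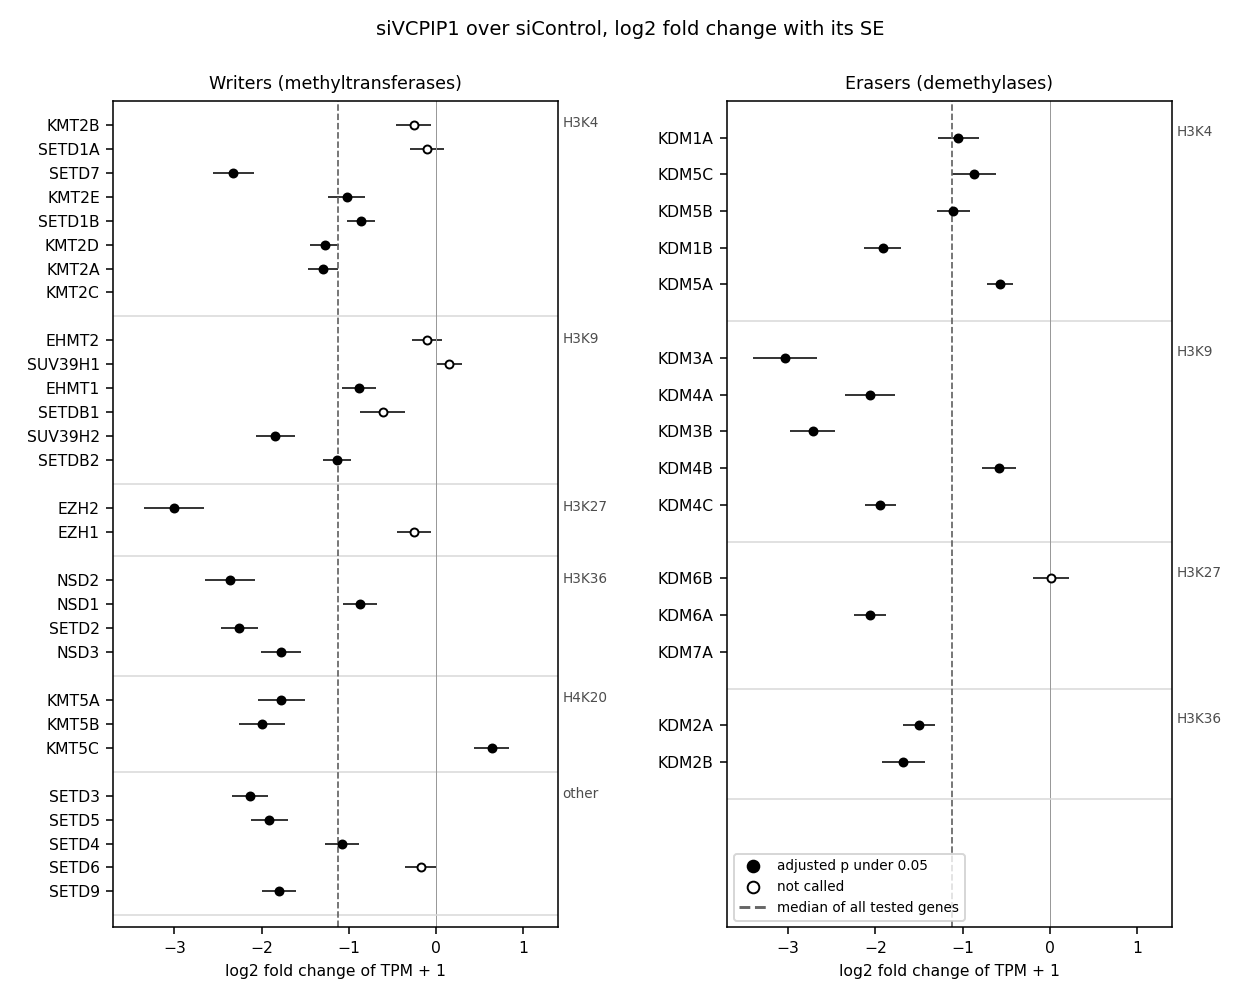
Log2 fold change of TPM + 1, siVCPIP1 over siControl, for each tested enzyme, with bars of 1 SE; filled points were called by limma and open points were not, and the dashed line is the median of all tested genes (-1.12). EZH2 and KDM3A lie farthest to the left (-3.01 and -3.03), and KMT5C is the only filled point right of 0 (0.64).

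The H3K4 writers comprise the KMT2 (MLL) and SETD1 enzymes, which work inside WDR5-containing COMPASS complexes, together with SETD7, which methylates H3K4 and many non-histone proteins. Of 7 tested, 5 fell, none rose and 2 were not called (median -1.03). KMT2B, a writer of promoter H3K4 trimethylation, had 16.07, 12.20 and 18.61 TPM in siVCPIP1 libraries and 20.48, 18.52 and 17.03 TPM in siControl libraries. SETD1A, which makes much of the bulk H3K4 trimethylation, had 10.27, 8.49 and 12.22 TPM in siVCPIP1 libraries and 11.80, 10.43 and 11.01 TPM in siControl libraries. These groups overlapped for both genes, and neither passed the test (log2 fold change -0.26, SE 0.20, adjusted p = 0.25 for KMT2B and -0.10, SE 0.19, adjusted p = 0.63 for SETD1A, limma). Their closest relatives stood apart between the groups. KMT2A, the MLL gene rearranged in leukaemia, had 0.66, 0.64 and 0.92 TPM in siVCPIP1 libraries against 3.57, 3.90 and 2.47 TPM in siControl libraries (log2 fold change -1.30, SE 0.17, adjusted p = 0.00011). SETD1B fell less, to 2.19, 2.03 and 2.48 TPM in siVCPIP1 libraries, against 4.71, 4.97 and 4.86 TPM in siControl libraries (log2 fold change -0.86, SE 0.16, adjusted p = 0.00096).

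SETD7 showed the largest change of the class, at 0.38, 0.39 and 1.30 TPM in siVCPIP1 libraries and 7.93, 7.82 and 6.05 TPM in siControl libraries (log2 fold change -2.33, SE 0.23, limma adjusted p = 3e-05). The enhancer writers KMT2C and KMT2D were both low. KMT2D averaged 1.03 ± 0.318 TPM in siVCPIP1 libraries and 3.89 ± 0.352 TPM in siControl libraries (SD, n = 3 each, as throughout), with a log2 fold change of -1.28 (SE 0.16). KMT2C had 0.07, 0.06 and 0.20 TPM in siVCPIP1 libraries and 1.63, 2.07 and 1.25 TPM in siControl libraries, and was called lower with no filter (log2 fold change -1.25, adjusted p = 0.00013). KMT2E, whose SET domain is held to be inactive on histones, averaged 2.92 ± 0.293 TPM in siVCPIP1 libraries against 7.10 ± 1.66 TPM in siControl libraries (log2 fold change -1.03, SE 0.21). The direction of the class depended on the scaling: 3 were lower and 2 higher by median-of-ratios scaling, with 1 lower and 4 higher after quantile normalization, and 3 lower and 2 higher after GC and length correction.

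The H3K9 writers held their levels more than any other class of writers by this measure (median -0.75, against -1.12 for all genes). Of 6 tested, 3 fell, none rose and 3 were not called. EHMT2 (G9a) and EHMT1 (GLP) form the heterodimer that makes H3K9 mono- and dimethylation in euchromatin. EHMT2 had 27.55, 22.85 and 32.96 TPM in siVCPIP1 libraries and 30.69, 29.87 and 28.32 TPM in siControl libraries, which overlapped (log2 fold change -0.10, SE 0.17, limma adjusted p = 0.59). EHMT1 fell to 10.46, 10.80 and 15.10 TPM in siVCPIP1 libraries, against 23.93, 23.93 and 21.07 TPM in siControl libraries (log2 fold change -0.89, SE 0.19, adjusted p = 0.0023). The heterodimer's partners thus had unequal changes.

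SUV39H1 and SUV39H2 both make H3K9 trimethylation at pericentromeric heterochromatin. SUV39H1 (GRCh38 chrX:48695554-48709012, plus strand) had 28.12, 28.56 and 27.59 TPM in siVCPIP1 libraries and 27.76, 24.30 and 23.95 TPM in siControl libraries. The groups overlapped and the gene was not called (log2 fold change 0.15, SE 0.15, limma adjusted p = 0.38). SUV39H2 (chr10:14878820-14904315, plus strand) fell to 0.96, 1.31 and 2.37 TPM in siVCPIP1 libraries, against 7.98, 8.04 and 7.73 TPM in siControl libraries (log2 fold change -1.85, SE 0.22, adjusted p = 7.4e-05). SETDB1, which works with TRIM28 to silence retroelements, had 11.01, 8.48 and 17.43 TPM in siVCPIP1 libraries and 17.14, 17.00 and 21.86 TPM in siControl libraries. It was not called (log2 fold change -0.61, SE 0.26, adjusted p = 0.055), but without siVCPIP1 replicate 3, its highest siVCPIP1 library, the log2 fold change was -0.87 with an adjusted p of 2.3e-05. Its relative SETDB2 had 0.86, 1.20 and 1.44 TPM in siVCPIP1 libraries and 3.77, 3.42 and 4.0 TPM in siControl libraries (log2 fold change -1.13, SE 0.16, adjusted p = 0.00018). The class turned with the scaling, to 1 lower and 3 higher with the median-of-ratios method, 0 lower and 5 higher after quantile normalization, and 0 lower and 4 higher after GC and length correction.

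The upstream sequences of the SUV39H pair are printed because these paralogs moved apart on deposited TPM. The correction for GC and length removed the gap: both were called higher, SUV39H1 by 0.38 (adjusted p = 0.023) and SUV39H2 by 0.47 (adjusted p = 0.0061). The sequences are RefSeq promoters on GRCh38.p14, up to 250 bases before the RefSeq start and ending where the GENCODE 29 gene begins, 5′ to 3′ on the gene's strand, with CpG dinucleotides in capitals. The SUV39H1 run (chrX:48695304-48695553, plus strand, 250 bases) holds 5 CpG at 56.0% GC, and the SUV39H2 run (chr10:14878616-14878819, plus strand, 204 bases) holds 32 CpG at 80.4% GC. Over the tested members with a promoter, promoter GC content had a Pearson r of -0.294 with log2 fold change (n = 39, a description). CpG counts varied among members: NSD1, which fell, had 7 CpG in 250 bases, and KMT2B, which was not called, had 40. The part of the promoter sequence in the changes was not tested. The median promoter of the 41 members with a RefSeq entry held 25 CpG in 250 bases, and the median of all 35116 promoters held 11.
SUV39H1: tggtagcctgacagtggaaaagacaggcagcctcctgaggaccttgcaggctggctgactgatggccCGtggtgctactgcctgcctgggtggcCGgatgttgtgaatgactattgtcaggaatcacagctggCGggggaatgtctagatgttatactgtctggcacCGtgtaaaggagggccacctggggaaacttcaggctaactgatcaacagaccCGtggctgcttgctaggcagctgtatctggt
SUV39H2: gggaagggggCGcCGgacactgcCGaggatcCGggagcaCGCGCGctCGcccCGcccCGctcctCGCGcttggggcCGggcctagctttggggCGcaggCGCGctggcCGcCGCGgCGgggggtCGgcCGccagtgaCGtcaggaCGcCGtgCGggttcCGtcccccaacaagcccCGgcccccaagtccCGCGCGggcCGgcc

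EZH2 and EZH1 are the alternative catalytic subunits of Polycomb repressive complex 2, which methylates H3K27; EZH2 predominates in dividing cells and EZH1 in resting ones. EZH2 (chr7:148807383-148884321, minus strand) fell to 1.80, 2.28 and 6.47 TPM in siVCPIP1 libraries, against 28.27, 33.97 and 33.79 TPM in siControl libraries. It kept 11.0% of its siControl mean (log2 fold change -3.01, SE 0.35, limma adjusted p = 5.8e-05). EZH1 (chr17:42700275-42745049, minus strand) had 11.90, 9.89 and 14.99 TPM in siVCPIP1 libraries and 14.33, 14.74 and 14.90 TPM in siControl libraries. The EZH1 groups overlapped and it was not called (log2 fold change -0.26, SE 0.19, adjusted p = 0.24), although without siVCPIP1 replicate 3 it was called lower (-0.40, adjusted p = 0.011). EZH1 was thus the higher of the pair in all 3 siVCPIP1 libraries and EZH2 the higher in all 3 siControl libraries. EZH2 stayed lower after median-of-ratios scaling (-1.95), quantile normalization (-1.69) and GC and length correction (-0.92), whereas EZH1 was called higher in each (0.89, 1.08 and 1.09).

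The EZH promoters are printed on the same terms. The EZH1 run (chr17:42745050-42745290, minus strand, 241 bases) holds 25 CpG at 68.0% GC and the EZH2 run (chr7:148884322-148884541, minus strand, 220 bases) holds 35 CpG at 78.6% GC.
EZH1: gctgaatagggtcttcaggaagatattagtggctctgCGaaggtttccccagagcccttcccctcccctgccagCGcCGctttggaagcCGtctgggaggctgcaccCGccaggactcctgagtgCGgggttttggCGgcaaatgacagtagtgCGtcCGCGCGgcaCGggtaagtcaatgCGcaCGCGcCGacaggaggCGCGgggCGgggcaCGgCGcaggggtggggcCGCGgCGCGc
EZH2: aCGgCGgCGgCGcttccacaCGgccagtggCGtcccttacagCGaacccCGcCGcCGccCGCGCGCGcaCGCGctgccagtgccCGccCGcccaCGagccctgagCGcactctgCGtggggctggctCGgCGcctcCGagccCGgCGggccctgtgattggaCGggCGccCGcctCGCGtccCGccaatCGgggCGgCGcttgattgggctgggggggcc

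Short motifs were searched on both strands of the full 250-base windows, where a match is a description and not a site. GGGCGG (the GC box) occurred in 31 of the 41 member promoters, or 75.6%, against 42.6% of all promoters, and it was present in those of SUV39H2, EZH1 and EZH2. CCAAT occurred in 14 (34.1%, against 32.0%), including EZH2. TTTNNCGC, an E2F-like motif, occurred in 4 (9.76%, against 5.92%), including EZH1, and CCGGAAGT, an ETS core, in 1 (2.44%, against 3.42%).

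All 4 H3K36 writers fell (median -2.01). NSD2, the H3K36 dimethyltransferase activated by translocation in myeloma, had 6.38, 4.64 and 11.93 TPM in siVCPIP1 libraries and 39.13, 42.88 and 40.86 TPM in siControl libraries (log2 fold change -2.37, SE 0.29, limma adjusted p = 7.4e-05). SETD2, the writer of H3K36 trimethylation over transcribed genes, had 0.47, 0.37 and 1.20 TPM in siVCPIP1 libraries and 6.97, 7.64 and 5.98 TPM in siControl libraries (log2 fold change -2.25, SE 0.21, adjusted p = 2.4e-05). SETD2 kept 9.91% of its siControl mean. NSD1 kept 49.4%, with 3.31, 3.30 and 4.76 TPM in siVCPIP1 libraries and 7.46, 7.86 and 7.72 TPM in siControl libraries (log2 fold change -0.87, SE 0.19, adjusted p = 0.0027). NSD3 averaged 1.28 ± 0.732 TPM in siVCPIP1 libraries against 6.57 ± 0.528 TPM in siControl libraries (log2 fold change -1.78, SE 0.23). None of the 4 overlapped between the groups. Over all tested genes, 66.0% were called lower and 86.0% did not overlap, so these counts are not read as particular to the class. After median-of-ratios scaling 3 were lower and 0 higher; after quantile normalization, and again after GC and length correction, 2 were lower (NSD2 and SETD2) and NSD1 was higher.

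Among the H4K20 writers, KMT5A and KMT5B fell and KMT5C rose. KMT5A, the cell-cycle-regulated H4K20 monomethyltransferase, had 14.95, 13.03 and 27.30 TPM in siVCPIP1 libraries and 64.01, 71.92 and 52.29 TPM in siControl libraries, where it was the most abundant writer (log2 fold change -1.77, SE 0.27, limma adjusted p = 0.00027). KMT5B and KMT5C extend that mark to di- and trimethylation. KMT5B (chr11:68154863-68213828, minus strand) had 4.88, 6.13 and 10.37 TPM in siVCPIP1 libraries and 25.64, 31.30 and 34.41 TPM in siControl libraries (log2 fold change -2.00, SE 0.26, adjusted p = 0.00012). KMT5C (chr19:55339853-55348120, plus strand) had 35.55, 32.68 and 31.41 TPM in siVCPIP1 libraries and 25.39, 23.17 and 15.63 TPM in siControl libraries (log2 fold change 0.64, SE 0.20, adjusted p = 0.016). The groups did not overlap for any of the 3 genes, nor for 86.0% of all tested genes. KMT5C was the most abundant writer of siVCPIP1 libraries by mean TPM. Its call rested on single libraries: without siControl replicate 3 the log2 fold change was 0.44 with an adjusted p of 0.051, and without siVCPIP1 replicate 1 it was 0.59 with an adjusted p of 0.061. After median-of-ratios scaling, and again after quantile normalization, KMT5A and KMT5B were lower and KMT5C was higher (1.82 and 1.64 for KMT5C, adjusted p = 0.00011 and 7.2e-05). After GC and length correction KMT5C was not called (0.19, adjusted p = 0.17), nor was KMT5B (0.08, adjusted p = 0.67), whereas KMT5A was still lower (-0.61, adjusted p = 0.008). With a pseudocount of 0.1 TPM in that correction KMT5B was called higher (0.75, adjusted p = 0.0057).

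The other writers act mainly on proteins other than histones or have debated substrates. Of 5 tested, 4 fell, none rose and SETD6 was not called (median -1.80). SETD3, an actin histidine methyltransferase, had 8.18, 8.67 and 13.23 TPM in siVCPIP1 libraries and 46.60, 51.65 and 41.77 TPM in siControl libraries (log2 fold change -2.14, SE 0.21, limma adjusted p = 2.7e-05). SETD5, a chromatin protein mutated in intellectual disability, had 3.84, 3.14 and 5.32 TPM in siVCPIP1 libraries and 15.95, 19.50 and 18.34 TPM in siControl libraries (log2 fold change -1.91, SE 0.22, adjusted p = 5.1e-05). SETD6, which methylates the NF-kappaB subunit RELA, averaged 4.12 ± 0.427 TPM in siVCPIP1 libraries and 4.79 ± 0.682 TPM in siControl libraries (log2 fold change -0.18, SE 0.18, adjusted p = 0.39). SETD4 averaged 3.25 ± 0.616 TPM in siVCPIP1 libraries against 7.93 ± 1.03 TPM in siControl libraries, and both were called lower (log2 fold change -1.07 and -1.80 for SETD4 and SETD9). SETD9 averaged 0.460 ± 0.217 TPM in siVCPIP1 libraries against 4.13 ± 1.14 TPM in siControl libraries. After median-of-ratios scaling 3 were lower and 1 higher, after quantile normalization 3 lower and 2 higher, and after GC and length correction 1 lower (SETD5) and 2 higher (SETD4 and SETD6).

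Every H3K4 eraser fell, 5 of 5 (median -1.05), by about as much as the median gene, and 66.0% of all tested genes were called lower. KDM1A (LSD1), the flavin-dependent eraser of H3K4 mono- and dimethylation in CoREST complexes, was the most abundant member by mean TPM in both groups. It had 33.31, 27.54 and 54.00 TPM in siVCPIP1 libraries and 69.81, 78.19 and 84.37 TPM in siControl libraries (log2 fold change -1.05, SE 0.24, limma adjusted p = 0.0028). KDM1B (LSD2) kept less, with 0.40, 0.37 and 1.09 TPM in siVCPIP1 libraries and 5.27, 5.93 and 3.95 TPM in siControl libraries (log2 fold change -1.92, SE 0.21, adjusted p = 4.8e-05). The KDM5 enzymes remove H3K4 di- and trimethylation at promoters. KDM5C had 8.56, 6.13 and 12.81 TPM in siVCPIP1 libraries and 17.92, 17.35 and 15.37 TPM in siControl libraries (log2 fold change -0.86, SE 0.25, adjusted p = 0.011). KDM5B had 1.41, 1.64 and 2.54 TPM in siVCPIP1 libraries and 4.74, 5.48 and 5.03 TPM in siControl libraries (log2 fold change -1.10, SE 0.19, adjusted p = 0.00065). KDM5A averaged 1.93 ± 0.110 TPM in siVCPIP1 libraries against 3.36 ± 0.359 TPM in siControl libraries (log2 fold change -0.57, SE 0.15, adjusted p = 0.0071). The direction of the class did not hold after rescaling: the median-of-ratios method gave 1 lower and 0 higher, with 2 lower and 3 higher after quantile normalization, and 0 lower and 2 higher (KDM5A and KDM5B) after GC and length correction.

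The H3K9 erasers also fell in every case tested, 5 of 5, with a median of -2.06, the lowest of the eraser classes. The share called lower over all tested genes was 66.0%. KDM3A and KDM3B remove H3K9 mono- and dimethylation. KDM3A had 2.01, 2.07 and 7.09 TPM in siVCPIP1 libraries and 29.66, 34.58 and 36.54 TPM in siControl libraries (log2 fold change -3.03, SE 0.37, limma adjusted p = 7.3e-05). KDM3B had 0.69, 0.45 and 1.75 TPM in siVCPIP1 libraries and 11.17, 13.41 and 9.97 TPM in siControl libraries (log2 fold change -2.72, SE 0.26, adjusted p = 2.5e-05). The groups stood well apart for both, which kept 11.1% and 8.37% of their siControl means. The KDM4 enzymes remove trimethylation from H3K9 and H3K36. KDM4A had 2.38, 1.75 and 5.04 TPM in siVCPIP1 libraries and 14.61, 15.82 and 14.47 TPM in siControl libraries (log2 fold change -2.06, SE 0.29, adjusted p = 0.00018). KDM4C averaged 0.417 ± 0.0924 TPM in siVCPIP1 libraries against 4.52 ± 1.14 TPM in siControl libraries (log2 fold change -1.94, SE 0.18). KDM4B fell least, with 2.73, 2.05 and 3.49 TPM in siVCPIP1 libraries and 4.71, 4.92 and 4.08 TPM in siControl libraries (log2 fold change -0.58, SE 0.20, adjusted p = 0.022). The KDM4B call was lost without siControl replicate 1 (adjusted p = 0.0783) or 2 (0.0867) and without siVCPIP1 replicate 1 (0.0522) or 2 (0.0886). After median-of-ratios scaling, and again after quantile normalization, 4 of the 5 were lower and KDM4B was higher; after GC and length correction 3 were lower (KDM3A, KDM3B and KDM4A) and none higher.

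The H3K27 erasers split. KDM6A (UTX), a component of KMT2C and KMT2D complexes, had 0.14, 0.06 and 0.51 TPM in siVCPIP1 libraries and 3.80, 5.01 and 3.60 TPM in siControl libraries (log2 fold change -2.06, SE 0.18, limma adjusted p = 2e-05). It kept 5.72% of its siControl mean, the least of the 43 enzymes. KDM6B (JMJD3), its stimulus-inducible relative, had 4.98, 3.78 and 5.82 TPM in siVCPIP1 libraries and 5.29, 4.97 and 4.06 TPM in siControl libraries. These overlapped, and KDM6B was the only eraser not called (log2 fold change 0.01, SE 0.21, adjusted p = 0.96). KDM7A, which removes H3K9 and H3K27 dimethylation, had 0.11, 0.09 and 0.26 TPM in siVCPIP1 libraries and 1.11, 1.44 and 1.03 TPM in siControl libraries (-0.93, adjusted p = 0.00014, with no filter). KDM6A was called lower after both scalings (-1.50 and -0.85) but not after GC and length correction (-0.01, adjusted p = 0.96), although with a pseudocount of 0.1 TPM in that correction it was called lower (-1.08, adjusted p = 0.0061). KDM6B was called higher after both scalings and the correction (1.02, 1.52 and 0.44).

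Both H3K36 erasers fell. KDM2A, a CXXC-domain eraser of H3K36 dimethylation at CpG islands, had 13.87, 14.34 and 20.53 TPM in siVCPIP1 libraries and 45.15, 50.74 and 45.43 TPM in siControl libraries (log2 fold change -1.50, SE 0.19, limma adjusted p = 8.3e-05). KDM2B, which also brings a variant Polycomb complex to CpG islands, had 0.83, 0.67 and 1.83 TPM in siVCPIP1 libraries and 4.20, 6.17 and 6.61 TPM in siControl libraries (log2 fold change -1.68, SE 0.24, adjusted p = 0.00022). No library of one group reached the other for either gene, as held for 86.0% of all tested genes. Both stayed lower after median-of-ratios scaling and after GC and length correction; after quantile normalization KDM2A was lower and KDM2B was not called (-0.12, adjusted p = 0.52). With a pseudocount of 0.1 TPM in the correction KDM2A was not called (-0.01, adjusted p = 0.92).

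Set against each other, writers and erasers both lost level, and the erasers' median change was the lower. Erasers had 13 of 14 called lower (92.9%) and 0 higher (median -1.59), and writers 19 of 27 lower (70.4%) and 1 higher (median -1.13). A siVCPIP1 mean under 1 TPM was found for 4 of the 14 erasers and 4 of the 27 writers. These passed the filter only through their siControl level and could not be called higher, so the counts are no support for a difference between the classes. Of all tested genes 66.0% were lower and 15.0% higher (median -1.12), so the writers' share lay near that of all genes. The summed TPM of the 28 writers was 226.59 ± 43.0 in siVCPIP1 libraries and 470.85 ± 26.4 in siControl libraries. That of the 15 erasers was 85.39 ± 29.8 in siVCPIP1 libraries and 239.87 ± 14.2 in siControl libraries. Writers therefore held 74.2%, 75.3% and 69.7% of the summed member TPM in siVCPIP1 libraries, against 67.6%, 66.3% and 64.9% in siControl libraries, with no overlap and a difference of 6.845 percentage points (no test). The eraser median lay under that of all genes by 0.47 in log2 on deposited TPM, by 0.44 after median-of-ratios scaling, by 0.51 after quantile normalization and by 0.30 after GC and length correction. The writer median differed from it by -0.01, -0.18, 0.30 and 0.09 in the same order, so its side depended on the scaling. With no filter the all-gene median was -0.44, and the writer and eraser medians lay 0.75 and 1.06 under it.

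Within the H3K9 enzymes the summed levels of erasers and writers differed, though single genes crossed. Summed TPM of the 5 erasers was 10.9 ± 6.05 in siVCPIP1 libraries against 69.2 ± 4.93 in siControl libraries, whereas that of the 6 writers was 83.0 ± 12.4 in siVCPIP1 libraries against 108.2 ± 2.62 in siControl libraries. Few genes set these sums: EHMT2 and SUV39H1 averaged 27.8 and 28.1 TPM in siVCPIP1 libraries, and KDM3A 33.6 TPM in siControl libraries. The writers SUV39H2 and SETDB2 kept 19.5% and 31.3% of their siControl means, and the eraser KDM4B kept 60.3%. Erasers of H3K9 were all lower or not called under every scaling except for KDM4B, and writers of H3K9 were mostly not lower after rescaling, as given above. The difference between these classes was not tested, since the genes are not replicates.

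The order of abundance changed among the 43. KMT5C stood second by mean TPM in siVCPIP1 libraries and in place 12 in siControl libraries, with places 3 and 10 for SUV39H1, 9 and 18 for EZH1, and 16 and 33 for KDM6B in the same group order. NSD2 stood in place 14 in siVCPIP1 libraries against 5 in siControl libraries, with places 20 and 6 for KDM3A and 21 and 7 for EZH2. Under 10% of the siControl mean was kept by 6 enzymes (KDM3B, KDM4C, KDM6A, KMT2C, SETD2 and SETD7), and over 80% by 8 (EHMT2, EZH1, KDM6B, KMT2B, KMT5C, SETD1A, SETD6 and SUV39H1). All 6 had a siVCPIP1 mean under 1 TPM, and KMT2C was not in the test. The shares of all genes that kept under 10% or over 80% were not counted, so neither count is read as a trait of the enzymes. In 30 of the 32 enzymes called lower, siVCPIP1 replicate 3 was the highest library of its group. The share over all genes called lower was not counted, so this is not read as a trait of the enzymes. The siVCPIP1 libraries differed as a whole, with 8359 to 9678 genes at 1 TPM or more.

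A raw TPM ratio between paralogs within a library is unchanged by any single scaling factor for that library, though a pseudocount or a correction for GC content can change it. Of 15 pairs, 13 had raw TPM ratios that did not overlap between the groups, and 10 had log2(TPM + 1) ratios that did not. For each of those 10 the exact permutation test, two-sided, gave 0.1 (p = 0.15 adjusted over the 15 pairs), and 3 against 3 libraries allow no smaller p than 0.1. The TPM of single genes did not overlap between the groups for 86.0% of all tested genes. The share for other pairs of genes was not counted, so these counts are not read as particular to paralogs. EZH2/EZH1 was 0.151, 0.231 and 0.432 in siVCPIP1 libraries against 1.97, 2.31 and 2.27 in siControl libraries. KMT5C/KMT5B was 7.29, 5.33 and 3.03 in siVCPIP1 libraries against 0.990, 0.740 and 0.454 in siControl libraries. KDM6B/KDM6A was 35.6, 63.0 and 11.4 in siVCPIP1 libraries against 1.39, 0.992 and 1.13 in siControl libraries. In each of these the order of the paralogs turned round or a near-equal pair became unequal. SUV39H1/SUV39H2 was 29.3, 21.8 and 11.6 in siVCPIP1 libraries against 3.48, 3.02 and 3.10 in siControl libraries. EHMT2/EHMT1 was 2.63, 2.12 and 2.18 in siVCPIP1 libraries against 1.28, 1.25 and 1.34 in siControl libraries. NSD2/NSD1 went the other way, at 1.93, 1.41 and 2.51 in siVCPIP1 libraries against 5.25, 5.46 and 5.29 in siControl libraries. The ratios KDM3B/KDM3A and KDM5C/KDM5A overlapped between the groups. In 10 of the 15 pairs it was the paralog with the higher transcript GC content that gained. After GC and length correction of log2(TPM + 1), 3 of the 14 pairs with both genes tested changed sign (SUV39H1/SUV39H2, SETDB1/SETDB2 and KDM3B/KDM3A). The KDM3B/KDM3A difference was already negative on raw TPM ratios (-0.37 in log2). With the correction the log2(TPM + 1) ratio difference was -2.01 for EZH2/EZH1, against -2.75 before, but 0.11 for KMT5C/KMT5B, against 2.64 before, and 0.45 for KDM6B/KDM6A, against 2.07 before.

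**Figure D3:**
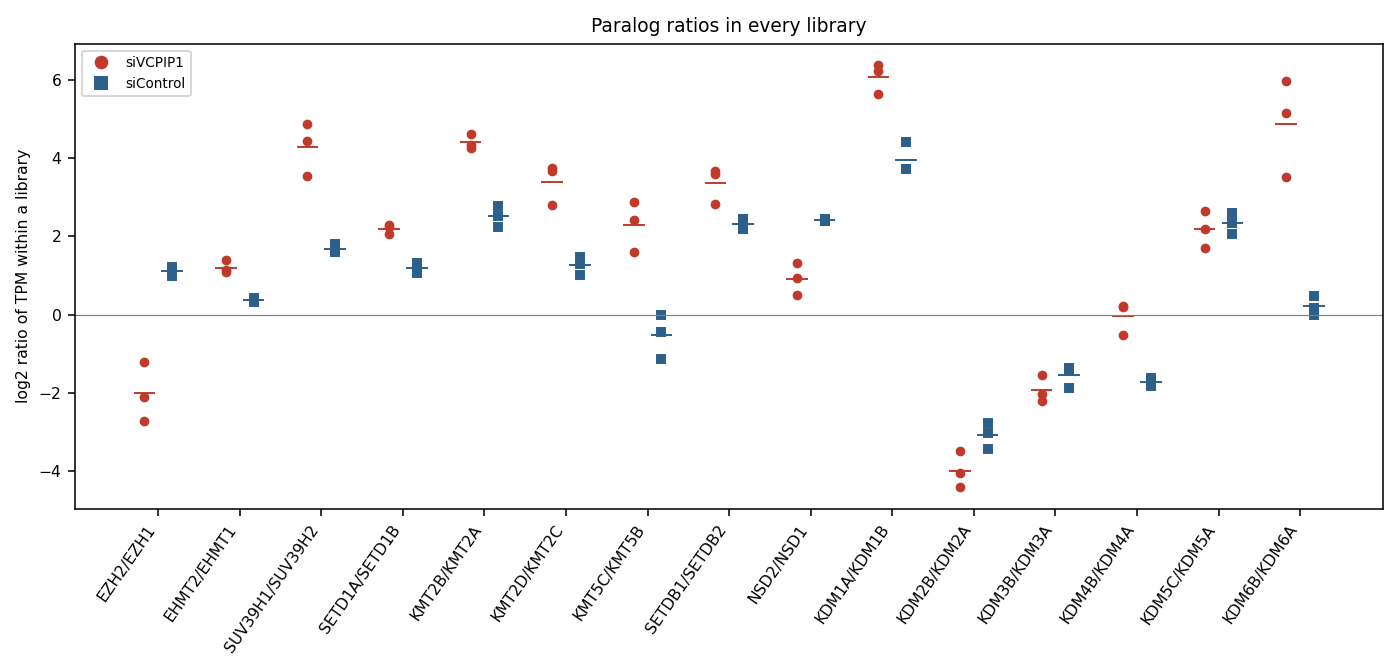
Log2 ratio of raw TPM between paralogs within each library, siVCPIP1 as circles and siControl as squares, with the mean of each group as a line, for 15 pairs. EZH2/EZH1 lies under 0 in the siVCPIP1 libraries and over 0 in the siControl libraries, and KDM3B/KDM3A and KDM5C/KDM5A overlap.

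Transcript GC content moved with the change, in the members as in all genes. Across the 41 tested members, log2 fold change and transcript GC had a Pearson r of 0.626 and a Spearman rho of 0.573, against 0.724 and 0.736 across 10916 genes; genes share libraries and are not independent, so these are descriptions. For writers r was 0.688 (n = 27) and for erasers 0.507 (n = 14). Length had an r of -0.0311 and siControl level an r of -0.114. Among the 12 members with at least 55% GC, 6 fell, 1 rose and 5 were not called (median -0.42). Of all 3879 such genes 26.8% fell and 37.2% rose (median 0.14). Among the 29 under 55%, 26 fell (89.7%) and 3 were not called (median -1.80), against 87.8% of all 7037 such genes (median -1.74). KMT5C, the enzyme that rose, had 66.1% GC, KDM6B 62.4%, KMT2B 63.5% and SUV39H1 58.7%. EZH2, at 44.8%, and KDM6A, at 41.8%, were low in GC. The median was 48.5% for writers, 50.6% for erasers and 50.4% for all tested genes. The part of GC content in these differences was not tested, beyond the correction.

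**Figure D4:**
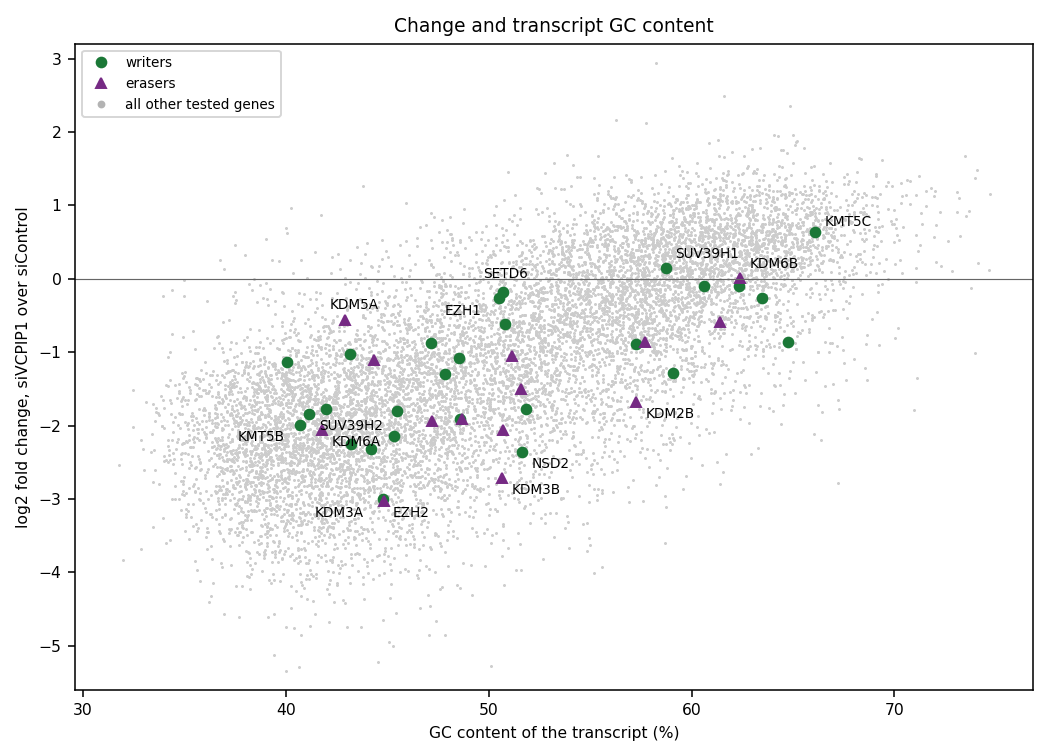
Log2 fold change of TPM + 1 (siVCPIP1 over siControl) against transcript GC content in percent, with writers as circles, erasers as triangles and all other tested genes as grey points. KMT5C lies at the upper right (66.1% GC, 0.64), and EZH2 and KDM3A lie under the cloud's centre near 45% GC.

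Some enzymes kept 1 direction through every version of the values. Lower on deposited TPM, after both scalings, and after GC and length correction with a pseudocount of 1 or 0.1 TPM were 8 members: the writers EZH2, KMT5A, NSD2, SETD2 and SETD7 and the erasers KDM3A, KDM3B and KDM4A. After GC and length correction the log2 fold change was -1.43 for KDM3B (adjusted p = 9.7e-05) and -1.17 for both NSD2 (adjusted p = 0.00051) and KDM3A (adjusted p = 0.0022). KDM3B, SETD2 and SETD7 are among the members with a siVCPIP1 mean under 1 TPM, which passed the filter only through their siControl level. Higher after both scalings and both corrections were 6 members, EZH1, KDM6B, SETD1A, SETD6, SETDB1 and SUV39H1, none of which was called higher on deposited TPM. The share of all tested genes that meets the same conditions is not given here, so these counts are not read as a trait of the enzymes. After GC and length correction alone, 31.7% of all tested genes were lower and 37.2% higher. KDM5A, called lower on deposited TPM, was higher by 1.18 after GC and length correction (adjusted p = 0.00023). Both corrected and deposited values are given because neither is known to be on the true scale.

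**Figure D5:**
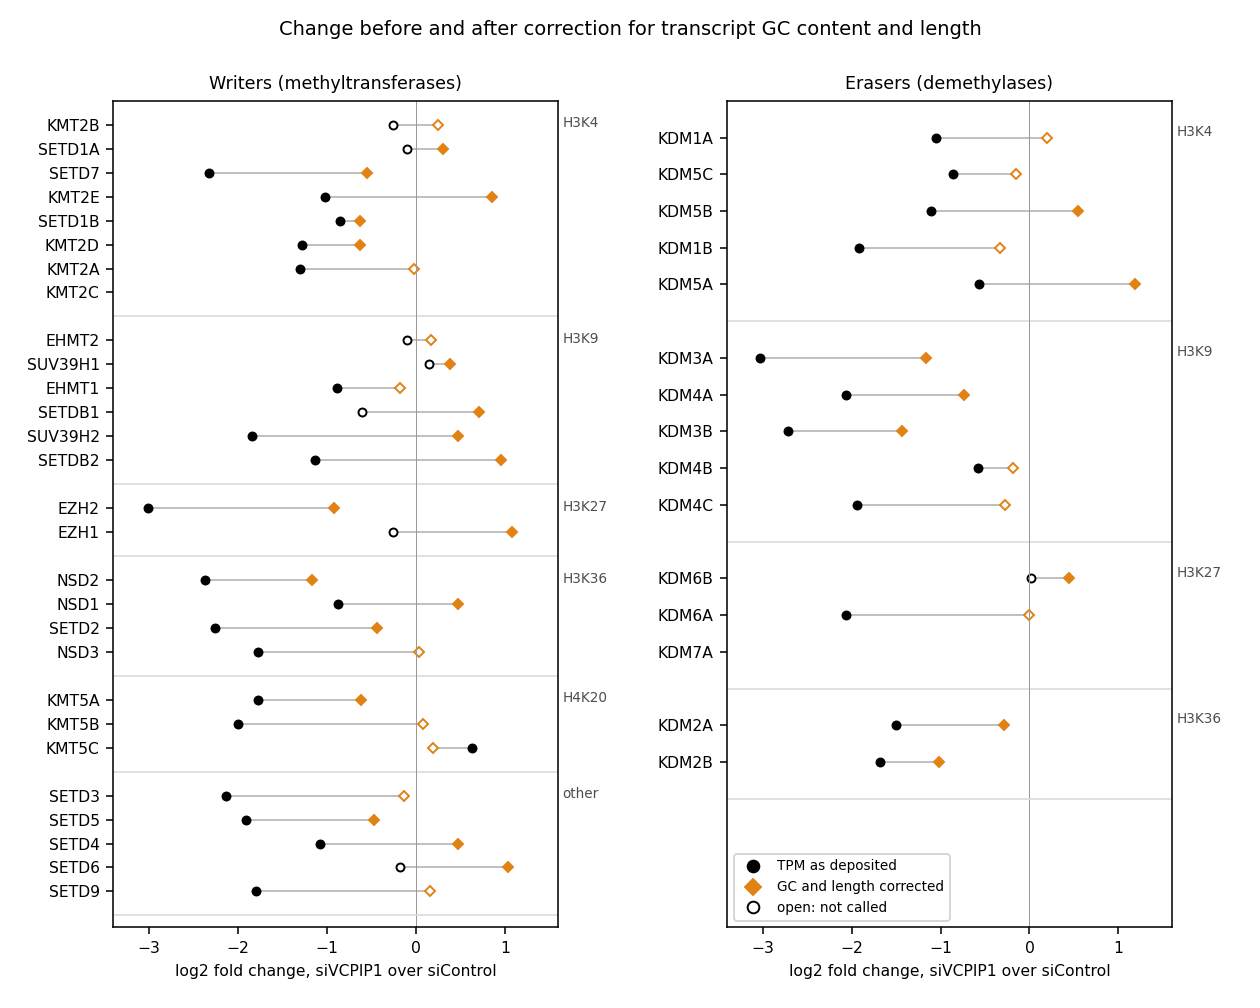
Log2 fold change of each tested enzyme on deposited TPM (circles) and after correction for transcript GC content and length (diamonds); open symbols were not called. KDM3B stays farthest left after the correction (-1.43), and KDM5A, EZH1 and SETD6 move to the right of 0.

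Partners of these enzymes were counted from lists that were chosen with earlier results of these data known. Of the 9 PRC2 partners, 7 fell and 1 rose (median -2.15), led by the histone chaperones RBBP7 (5.45 TPM in siVCPIP1 libraries against 88.0 TPM in siControl libraries) and RBBP4 (1.94 TPM in siVCPIP1 libraries against 28.7 TPM in siControl libraries); PHF19, a Polycomb-like accessory subunit, rose (0.46). Of 14 COMPASS partners 12 fell and 1 rose (median -1.76), with CXXC1, which binds unmethylated CpG, rising by 0.95. Of 10 LSD1-CoREST partners 8 fell and 1 rose (median -1.89), led by the deacetylase HDAC2 (2.93 TPM in siVCPIP1 libraries against 55.8 TPM in siControl libraries). Of 10 readers and partners of H3K9 methylation 9 fell and 1 rose (median -2.17), led by the heterochromatin protein CBX1 (4.58 TPM in siVCPIP1 libraries against 57.4 TPM in siControl libraries). TRIM28, the SETDB1 corepressor, rose by 0.30. The TRIM28 call (adjusted p = 0.042) was lost in 4 of the 6 fits that leave out 1 library, and the PHF19 call (adjusted p = 0.015) in 3 of 6. Of all tested genes 66.0% were called lower and 15.0% higher, with a median of -1.12. The PRC2 list after GC and length correction had 3 lower and 3 higher (median 0.01), the COMPASS list 9 and 2 (-0.67), the CoREST list 5 and 0 (-0.40) and the H3K9 list 6 and 2 (-0.33), against a median of 0.07 for all genes. By median-of-ratios scaling the same lists had 6 and 2, 8 and 2, 6 and 2, and 8 and 2, and by quantile normalization 6 and 3, 8 and 3, 6 and 2, and 6 and 3. The shares of all tested genes, lower and higher, were 31.7% and 37.2% after GC and length correction. They were 45.1% and 40.3% by median-of-ratios scaling, and 38.8% and 42.2% by quantile normalization.

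For comparison, of 15 tested enzymes with the same activities outside the symbol rule, 11 fell and 2 rose, SMYD5 and HR (median -1.50). Of 8 tested histone acetyltransferases 5 fell and 1 rose (median -1.01), with HAT1, which acetylates newly made histone H4, at 1.24 TPM in siVCPIP1 libraries against 47.9 TPM in siControl libraries. Of 15 histone deacetylases 7 fell and 5 rose (median -0.40): HDAC5, HDAC10, SIRT2, SIRT6 and SIRT7. Without 1 library the deacetylases that rose numbered 3 to 5: the call was lost in 2 of 6 such fits for HDAC5 and in 4 for SIRT2, as it was in 4 for HR and 3 for KAT8, the acetyltransferase that rose. After GC and length correction the outside enzymes had 6 lower and 6 higher (median -0.04), the acetyltransferases 2 and 5 (0.39) and the deacetylases 1 and 5 (0.12). By median-of-ratios scaling these were 8 and 4, 3 and 3, and 3 and 9, and by quantile normalization 6 and 7, 2 and 4, and 3 and 10. Of all tested genes 66.0% were lower and 15.0% higher on deposited TPM, and 31.7% and 37.2% after GC and length correction. Median-of-ratios scaling gave 45.1% and 40.3% of them, and quantile normalization 38.8% and 42.2%. HDAC1 and HDAC2 stand in both the deacetylase and the CoREST list.

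The strand setting of the authors' counting is not given, and in the GENCODE 29 annotation 19 of the 43 members have an antisense gene over an exon and 4 a gene on the same strand, so reads of such neighbours cannot be told apart from theirs. EZH2 and SETD6 also have a named pseudogene that could share reads with them.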

How the data were processed

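RNA sequencing values were deposited by the authors as 1 table of TPM per gene symbol, with GRCh38.p13 named as the build, per the submitters' processing notes; for the aligner, counting tool, annotation and filters, the labels name none. All 6 columns were matched to samples by name and used as deposited. A pseudocount of 1 TPM was added, values were taken as log2, genes with a 6-library mean of 1 TPM or more were tested with limma 3.58.1 (eBayes with a trend, two-sided, R 4.3.3), and p-values were adjusted over all of them at a threshold of 0.05. A log2 fold change of TPM + 1 understates changes of low genes. The procedure was tested on simulated data. GC content and length came from GENCODE 29 transcripts on GRCh38, known for 99.5% of tested genes, and were removed per library as splines (5 and 3 degrees of freedom). Alternatives were a pseudocount of 0.1 TPM, no filter, median-of-ratios scaling, quantile normalization, GC and length correction, a replicate block, and leaving out each library. Members and lists were chosen with earlier results of these data known. Values per library are given for the 2 most abundant and the 2 most changed called members of each class, called members that rose, and paralogs described, and elsewhere for genes chosen after their values were seen.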

Additional observations from a re-analysis of the deposited data

How the results depend on the processing

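No alternative was left out: gene tests and counts were rerun under each, paralog ratios with another pseudocount, without each library and with GC and length corrected, the writers' share without each library. The corrected ratios, and a correction with both GC and length and a pseudocount of 0.1 TPM, were chosen after seeing the data. Whether the replicate numbers pair the libraries is not stated. Same-numbered deviations from the group means correlated with r = 0.531, -0.267 and 0.164, and other-numbered ones with r from -0.539 to 0.397. Deviations from a mean of 3 libraries are tied to each other, so these values cannot decide on pairing. With a replicate block all genes had 7085 lower and 1586 higher calls, against 7241 and 1646, KDM4B lost its call (limma adjusted p = 0.064) and SETDB1 gained one (0.0316).

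Fold changes that turned are listed below for members and VCPIP1 only, and genes of the partner and comparison lists turned as well. After median-of-ratios scaling 21 members were lower and 10 higher, writers had 8 higher, and erasers 8 lower and 2 higher. Fold changes that turned positive were EHMT1 0.28, EHMT2 1.09, EZH1 0.89, KDM1A 0.16, KDM4B 0.37, KDM5A 0.32, KDM5C 0.27, KMT2B 0.90, NSD1 0.16, SETD1A 1.02, SETD1B 0.086, SETD6 0.83 and SETDB1 0.54. After quantile normalization 17 members were lower and 19 higher, with 9 and 14 for writers and 8 and 5 for erasers. Those that turned were EHMT1 0.34, EHMT2 0.82, EZH1 1.08, KDM4B 0.99, KDM5A 0.95, KDM5B 0.49, KDM5C 0.53, KMT2A 0.13, KMT2B 0.96, KMT2D 0.23, KMT2E 0.59, NSD1 0.73, SETD1A 1.31, SETD1B 0.74, SETD4 0.55, SETD6 1.37, SETDB1 0.69 and SETDB2 0.38. After GC and length correction members had 13 and 13, writers 8 and 10, and erasers 5 and 3. Those that turned, also with the replicate block added, were VCPIP1 0.27 (adjusted p = 0.065), EHMT2 0.17, EZH1 1.09, KDM1A 0.19, KDM5A 1.18, KDM5B 0.55, KMT2B 0.25, KMT2E 0.85, KMT5B 0.083, NSD1 0.47, NSD3 0.036, SETD1A 0.31, SETD4 0.48, SETD6 1.03, SETD9 0.16, SETDB1 0.71, SETDB2 0.96 and SUV39H2 0.47. The log2(TPM + 1) ratio difference turned for SUV39H1/SUV39H2 (-0.087), SETDB1/SETDB2 (-0.25) and KDM3B/KDM3A (-0.26). With that replicate block members had 14 and 13, and erasers 6 and 3. With a pseudocount of 0.1 TPM in the correction, members had 15 and 16, writers 8 and 12, and erasers 7 and 4. The members that turned were EHMT2 0.23, EZH1 1.38, KDM1A 0.40, KDM5A 1.72, KDM5B 0.88, KMT2B 0.36, KMT2E 1.34, KMT5B 0.75, NSD1 0.90, NSD3 0.19, SETD1A 0.40, SETD3 0.21, SETD4 0.66, SETD6 1.19, SETDB1 0.96, SETDB2 1.31 and SUV39H2 0.60. Among the list genes that turned were CBX3 (0.11), RBBP5 (1.45) and KAT7 (0.90). For these changes with scaling or correction, the cause was not tested.

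With a pseudocount of 0.1 TPM alone the log2 ratio difference of KMT2D/KMT2C was 1.24, against -0.03, and that of KDM3B/KDM3A was -0.24, against 0.31. Leaving out each library, 31 to 35 members were lower and 0 to 1 higher (0 without siControl replicate 3 or siVCPIP1 replicate 1), writers had 19 to 22 lower and 0 to 1 higher, and erasers 12 to 13 lower and 0 higher. VCPIP1 ranged from -1.78 to -1.62, the writers' share difference from 5.72 to 8.52 percentage points, and the KMT2D/KMT2C log2 ratio difference from -0.10 to 0.020. Signs turned within the ranges of KDM6B (-0.10 to 0.15), EHMT2 (-0.23 to 0.025) and SETD1A (-0.22 to 0.017), none of which was called as deposited. KMT2B was called lower without siVCPIP1 replicate 3 (-0.39, adjusted p = 0.019). Read depth is unknown, so the precision of low values such as those of KMT2C and KDM7A is unknown.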
